A study of Homo sapiens with 12 samples.

Results

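The tubulins are the building blocks of microtubules, and 10 of their genes were followed here in RKO cells, a human colorectal carcinoma line. The alpha tubulins were TUBA1A, TUBA1B, TUBA1C, TUBA4A and TUBAL3, the beta tubulins TUBB2A, TUBB3, TUBB4B and TUBB6, and the gamma tubulin TUBG1. A gene's probe sets were taken where the annotation of the array named that gene and no other, and every such probe set was kept. This gave 17 probe sets for the 10 genes, of 22215 probe sets tested for 11963 genes named alone.

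RNA was hybridised to 12 expression arrays after 24 h, with 3 arrays in each of 4 groups. Cells received 20 µM TQ (thymoquinone, a quinone from the seed oil of Nigella sativa), 5-FU (5-fluorouracil, a thymidylate synthase inhibitor that is also built into RNA and DNA) at 10 µg/mL, equal to 76.8 µM, or both drugs at those doses. Control cells received neither drug: the sample labels name them untreated, while the study's methods describe an equal amount of the solvent DMSO, so whether a contrast contains an effect of the solvent cannot be told. All groups were the same line, which limits the comparison to 1 cell background, and the study's methods speak of independent biological replicates in general terms, while the sample labels do not tie the 3 arrays of a group to separate cultures. What the p-values capture is therefore array-to-array spread, which may be technical. Values were log2 signals normalized by the authors with RMA, and differences between groups were estimated in limma as log2 fold changes, their p-values adjusted after Benjamini-Hochberg over all 22215 probe sets. The words rose and fell are kept for an adjusted p under 0.05. Arrays of whole cultures cannot tell fewer cells of a kind apart from less RNA per cell.

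Alpha and beta tubulin pair as dimers and polymerise head to tail into the hollow microtubule, which carries cargo, shapes the cell and forms the mitotic spindle. Gamma tubulin does not enter the wall of the tube but sits in a ring complex that starts new microtubules. Human cells hold several genes for each kind, whose proteins differ mainly at their acidic tails, and cells are known to degrade tubulin mRNA when free dimers accumulate.

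Of the 12 arrays, 5-FU replicate 3 stood apart from its group, with a mean correlation of 0.911 with the other 5-FU arrays, while the other 11 arrays had between 0.952 and 0.998 with their own groups. TQ+5-FU replicate 2 did so less: its 0.978 was the lowest of its group but above that of 5-FU replicates 1 and 2. It was the array nearest to 5-FU replicate 3, and the deviations of these 2 arrays from their group means correlated at 0.883 over probe sets. The median absolute gap to the mean of the other arrays of a group was 0.70 for 5-FU replicate 3 and 0.33 for TQ+5-FU replicate 2, against 0.07 to 0.38 for the other 10. Both are called displaced here. The poly-A spike-in controls averaged 9.47 in 5-FU replicate 3 and 8.94 in TQ+5-FU replicate 2, against 8.22 to 8.97 in the other 10. All 17 tubulin probe sets were highest within the 5-FU group in 5-FU replicate 3, by a median of 0.20 over the mean of the other 5-FU arrays, and 65.0% of all probe sets did the same, by a median of 0.40 over all probe sets. For the calls below, values without these 2 arrays are given beside those of all 12. Of the markers of the labelled cell type, KRT18 read 11.91 to 12.81 and EPCAM 8.37 to 9.61 over the 12 arrays. KRT8 read 6.25 to 7.77 and CDX2 6.29 to 7.72, while CDH1, KRT19 and VIL1 stayed between 3.30 and 4.50.

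The start regions of the genes on which the results turn are printed first, so that the letters before the starts of the members discussed most can be compared. RefSeq held 14 windows of 250 bases upstream of a start for the 10 genes on GRCh38.p14. TUBB6 and TUBB2A had the 2 largest increases, TUBA1A rose with them, TUBAL3 fell, and TUBA1B, whose readings lay near the top of the scale, had no change that passed. Capitals mark CCAAT boxes (CCAAT or its reverse complement), TATA boxes (TATAA), AP-1 sites (TGANTCA) and the CRE (TGACGTCA), all searched on both strands.
TUBB6 upstream start, chr18:12307419-12307668, plus strand: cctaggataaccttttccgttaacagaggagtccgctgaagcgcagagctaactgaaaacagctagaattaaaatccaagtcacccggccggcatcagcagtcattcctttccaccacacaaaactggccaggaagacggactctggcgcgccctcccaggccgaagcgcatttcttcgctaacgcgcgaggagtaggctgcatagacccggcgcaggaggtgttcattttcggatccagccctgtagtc
TUBB6 downstream start, chr18:12307991-12308240, plus strand: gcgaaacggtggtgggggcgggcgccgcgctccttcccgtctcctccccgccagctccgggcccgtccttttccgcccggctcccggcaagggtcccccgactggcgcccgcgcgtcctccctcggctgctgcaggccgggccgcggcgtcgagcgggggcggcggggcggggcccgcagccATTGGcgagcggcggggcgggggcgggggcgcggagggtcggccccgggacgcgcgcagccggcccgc
TUBB2A, chr6:3157545-3157794, minus strand: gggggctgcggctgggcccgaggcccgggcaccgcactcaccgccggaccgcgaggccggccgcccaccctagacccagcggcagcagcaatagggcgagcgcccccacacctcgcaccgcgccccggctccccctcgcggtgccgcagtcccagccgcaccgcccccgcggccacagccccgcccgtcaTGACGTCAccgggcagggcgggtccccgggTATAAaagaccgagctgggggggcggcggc
TUBA1A, chr12:49189081-49189330, minus strand: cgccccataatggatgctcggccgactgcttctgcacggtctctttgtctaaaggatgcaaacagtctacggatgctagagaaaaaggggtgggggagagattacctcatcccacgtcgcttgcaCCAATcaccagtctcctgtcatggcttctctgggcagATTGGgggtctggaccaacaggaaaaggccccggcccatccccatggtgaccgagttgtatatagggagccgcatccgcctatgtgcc
TUBAL3, chr10:5404829-5405078, minus strand: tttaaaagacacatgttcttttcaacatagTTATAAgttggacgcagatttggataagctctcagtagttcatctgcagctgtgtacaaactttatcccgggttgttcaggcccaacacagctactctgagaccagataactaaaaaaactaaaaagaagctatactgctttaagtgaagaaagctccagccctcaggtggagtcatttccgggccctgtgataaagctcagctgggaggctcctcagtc
TUBA1B, chr12:49131396-49131645, minus strand: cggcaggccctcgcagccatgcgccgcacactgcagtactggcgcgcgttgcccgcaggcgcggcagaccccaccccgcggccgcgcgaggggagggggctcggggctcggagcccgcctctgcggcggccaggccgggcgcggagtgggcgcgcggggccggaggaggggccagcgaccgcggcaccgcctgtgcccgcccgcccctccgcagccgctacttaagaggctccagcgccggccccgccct
The TUBB2A window held a CRE followed by a TATA box, the downstream window of TUBB6 a single CCAAT box, the TUBA1A window 2 CCAAT boxes and the TUBAL3 window a TATA box read on both strands, whereas the TUBA1B window and the upstream TUBB6 window held none of the marked motifs. The CRE occurred in 1 of the 14 windows, that of TUBB2A, and in 1.65% of all 35116 RefSeq windows of this length. CCAAT was found in 8 of the 14 windows, from 6 genes, against 32.0% of all windows, and 2 of the 8 were overlapping TUBA1C windows that held the same box. TATAA was found in 6 of 14 against 18.9%, and the GC box GGGCGG, which is not capitalised, in 7 of 14 against 42.6%. An AP-1 site lay in 1 window, of TUBB3, against 6.57% of all windows. The p53 half-site, searched by its consensus, was in none of the 14 windows and in 5.57% of all. These letters describe the windows and do not show that a factor bound there.

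With all 12 arrays in the fit, more tubulin probe sets passed with 5-FU than with TQ or the combination. Of the 17 probe sets, 10 passed with 5-FU against control, 9 from 7 genes higher and 1 lower, while 6.68% of all probe sets passed, 3.54% higher and 3.13% lower. The 7 genes that rose were TUBB6, TUBB2A, TUBA1A, TUBG1, TUBB3, TUBA4A and TUBB4B, and the gene that fell was TUBAL3. The same count of 10 passed without the 2 displaced arrays, again 9 higher and 1 lower, but with 26.1% of all probe sets passing, 12.7% higher and 13.5% lower. This order was not kept where each pair of groups was tested alone: limma on the groups compared only passed 3 of the 17 with TQ, 1 with 5-FU and 3 with TQ+5-FU (29.5%, 0.729% and 3.88% of all probe sets), and the t-test of the study's methods 4, 0 and 1 after adjustment (16.2%, 1.19% and 2.46%). At an unadjusted p under 0.05 that t-test passed 15 of the 17 with 5-FU, against 11.6% of all probe sets. In 15 of the 17 probe sets every 5-FU array lay above every control array, against 12.5% of all probe sets. The 15 include the TUBA1B probe sets and 211750_x_at of TUBA1C, whose log2 fold changes were 0.06 to 0.10 and did not pass. Their probes can bind near-identical transcripts, so the 15 are not independent readings. The median log2 fold change of the 17 was 0.40 with 5-FU, 0.01 with TQ and 0.10 with TQ+5-FU, against 0.07, -0.09 and 0.00 over all probe sets.

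**Figure D1:**
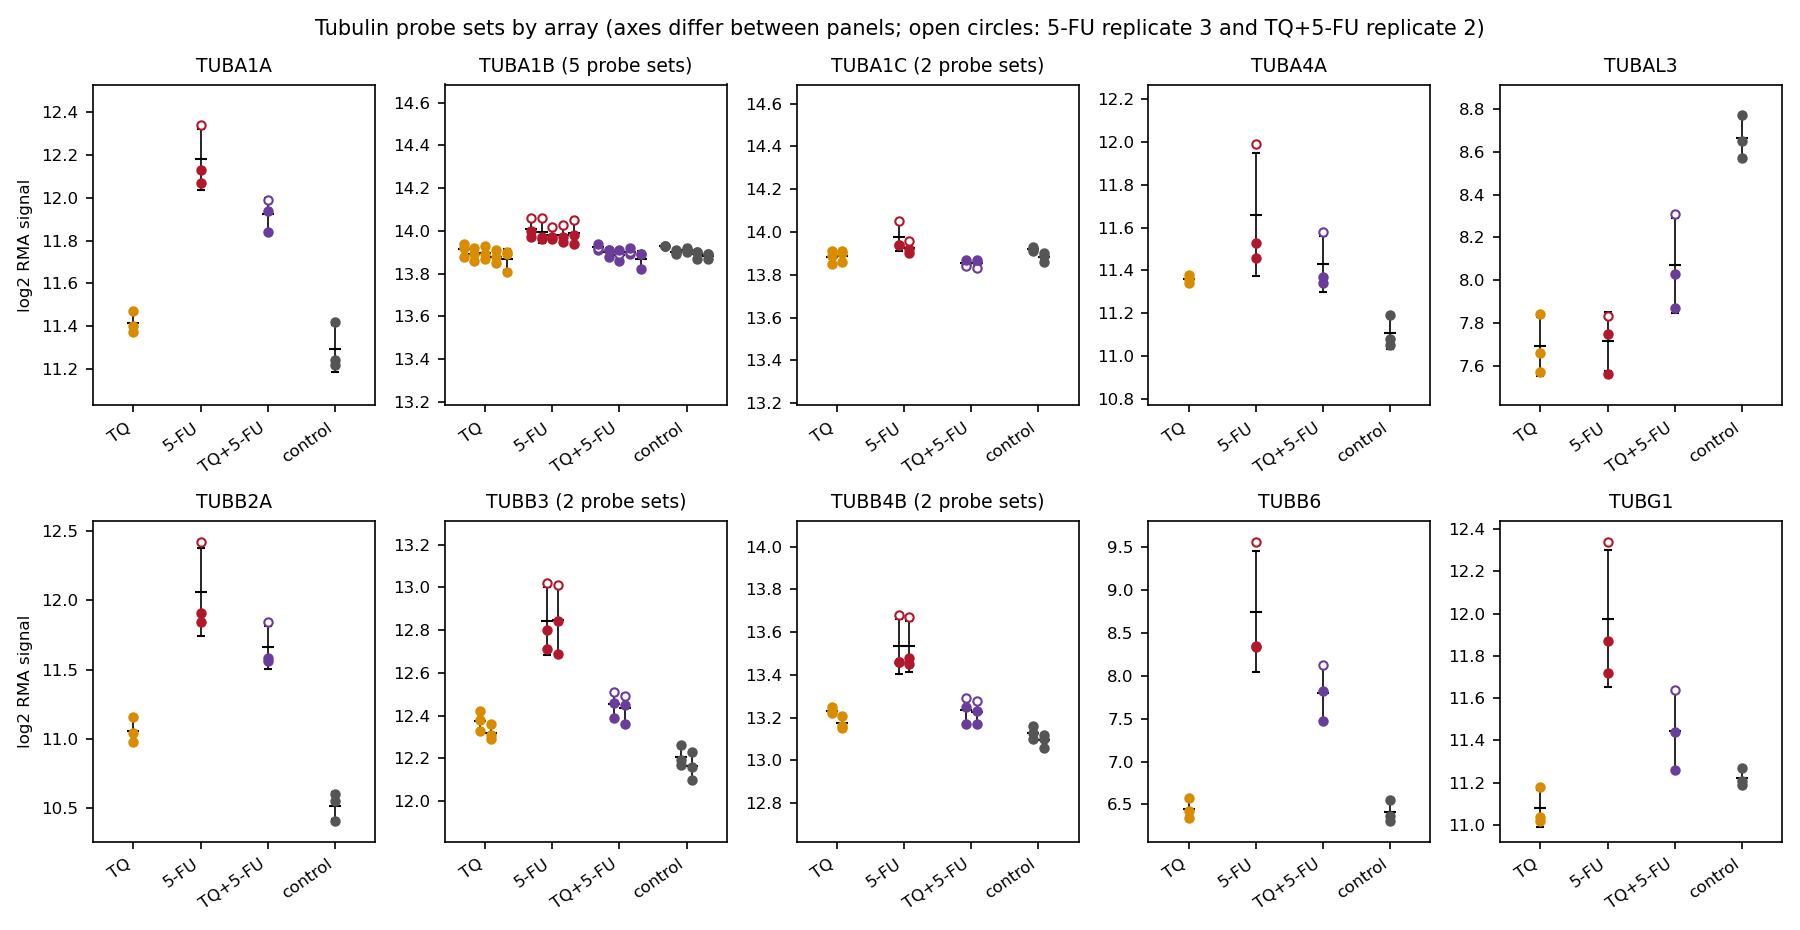
Log2 RMA signal (vertical axis, scaled separately in each panel) of the 17 tubulin probe sets in the TQ, 5-FU, TQ+5-FU and control arrays (horizontal axis), with 1 circle per array, a bar for the mean and whiskers of 1 SD over 3 arrays. 5-FU has the highest mean in 16 of the 17 probe sets, TUBAL3 is highest in control, and the open circles are 5-FU replicate 3 and TQ+5-FU replicate 2.

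Among the beta tubulins, TUBB6, an isotype known to disrupt microtubule arrays when overproduced, changed most. Its probe set read 6.42, 6.34 and 6.58 in TQ arrays, 8.35, 8.33 and 9.56 in 5-FU arrays and 7.47, 8.12 and 7.82 in TQ+5-FU arrays, against 6.36, 6.31 and 6.55 in control arrays. The 5-FU arrays and the TQ+5-FU arrays lay above all controls without overlap, whereas the TQ arrays and the controls covered the same range. With 5-FU, TUBB6 rose 5.06-fold (log2 fold change 2.34, SE 0.298, adjusted p = 0.0012). Its log2 fold change was 1.93 without the displaced arrays (adjusted p = 2.2e-06). With TQ+5-FU it rose 2.63-fold (log2 fold change 1.40, adjusted p = 0.037, and 1.24 with adjusted p = 8.4e-05 without the displaced arrays), a call that held in 3 of the 12 fits that each left out 1 array. With TQ its log2 fold change was 0.04 (95% CI -0.62 to 0.70).

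TUBB2A, a major beta tubulin of the nervous system that many other cells also make, was the second gene in size. It read 11.16, 11.04 and 10.98 in TQ arrays, 11.84, 11.91 and 12.42 in 5-FU arrays and 11.56, 11.84 and 11.58 in TQ+5-FU arrays, against 10.41, 10.55 and 10.60 in control arrays. The arrays of all 3 treatments lay above every control, and the 5-FU and TQ+5-FU ranges met at 11.84. TUBB2A rose 2.90-fold with 5-FU (log2 fold change 1.54, SE 0.16, adjusted p = 4e-04) and 2.21-fold with TQ+5-FU (1.14, adjusted p = 0.0045), and both passed in each of the 12 fits that left out 1 array. These values were 1.35 and 1.05 without the displaced arrays (adjusted p = 3.3e-06 and 3.6e-05). With TQ the log2 fold change of 0.54 (95% CI 0.19 to 0.90) did not pass, at adjusted p = 0.23, but had adjusted p = 0.001 without the displaced arrays. Another probe set, 209372_x_at, which the annotation gives to TUBB2B and TUBB2A together and which is therefore not among the 17, had a log2 fold change of 1.18 with 5-FU (adjusted p = 0.0069, and 0.92 with adjusted p = 5.7e-05 without the displaced arrays).

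TUBB3, the beta tubulin used as a marker of neurons and also found in many carcinomas, rose on both of its probe sets with 5-FU. The first, 202154_x_at, read 12.42, 12.33 and 12.38 in TQ arrays, 12.71, 12.80 and 13.02 in 5-FU arrays and 12.39, 12.51 and 12.46 in TQ+5-FU arrays, against 12.19, 12.17 and 12.26 in control arrays. The 5-FU arrays stood above all other arrays. Its log2 fold change with 5-FU was 0.64 and that of 213476_x_at 0.68 (SE 0.104 and 0.107, adjusted p = 0.0048 and 0.0039), which is 1.56-fold and 1.60-fold, and without the displaced arrays 0.55 and 0.60. With TQ+5-FU the log2 fold changes were 0.24 and 0.27 (adjusted p = 0.40 and 0.34). Of 7 other neuron markers 0 passed with 5-FU against control in limma, where 2 had an unadjusted p under 0.05, and their single readings ran from 2.97 to 7.48. GAP43, a growth cone protein, had the highest mean of them, with 6.50, 6.59 and 6.53 in TQ arrays, 7.27, 7.48 and 6.99 in 5-FU arrays and 7.48, 7.34 and 7.40 in TQ+5-FU arrays, against 6.83, 6.85 and 7.07 in control arrays. It had a log2 fold change of 0.33 with 5-FU (adjusted p = 0.22, and 0.46 with adjusted p = 0.0064 without the displaced arrays) and passed for TQ+5-FU against TQ (0.87, adjusted p = 0.018). The 7 markers summed to 32.26 to 32.96 in TQ arrays, 33.84 to 37.50 in 5-FU arrays and 33.23 to 35.58 in TQ+5-FU arrays, against 33.05 to 34.51 in control arrays. That sum was highest in 5-FU replicate 3, and its part in the TUBB3 result was not tested.

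TUBB4B, a widely made beta tubulin that is also a main component of cilia, moved least among the beta tubulins. Its probe set 208977_x_at read 13.25, 13.22 and 13.23 in TQ arrays, 13.46, 13.46 and 13.68 in 5-FU arrays and 13.17, 13.29 and 13.25 in TQ+5-FU arrays, against 13.10, 13.13 and 13.16 in control arrays. Its 5-FU arrays were separate from the others but by a small distance. The log2 fold changes with 5-FU were 0.40 and 0.44 for its 2 probe sets (adjusted p = 0.035 and 0.021), and 0.33 and 0.37 without the displaced arrays. The call of 208977_x_at held in 4 of the 12 fits with 1 array left out.

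Among the alpha tubulins, TUBA1A, the main alpha tubulin of developing neurons, rose with 5-FU and with the combination. It read 11.37, 11.40 and 11.47 in TQ arrays, 12.13, 12.07 and 12.34 in 5-FU arrays and 11.84, 11.99 and 11.94 in TQ+5-FU arrays, against 11.24, 11.22 and 11.42 in control arrays. The 5-FU arrays were highest, the TQ+5-FU arrays came next without overlap, and the TQ and control arrays overlapped. The rise was 1.84-fold with 5-FU (log2 fold change 0.88, SE 0.109, adjusted p = 0.0011) and 1.54-fold with TQ+5-FU (0.63, adjusted p = 0.015). These log2 fold changes were 0.80 and 0.59 without the displaced arrays, and the combination's call held in 8 of the 12 fits with 1 array left out.

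TUBA4A, an alpha tubulin gene that does not encode the C-terminal tyrosine of its relatives, read 11.36, 11.34 and 11.38 in TQ arrays, 11.46, 11.53 and 11.99 in 5-FU arrays and 11.34, 11.58 and 11.37 in TQ+5-FU arrays, against 11.05, 11.08 and 11.19 in control arrays. All 9 treated arrays were above the 3 controls, and the 3 treatments overlapped or lay close together. Only the 5-FU difference passed, at 1.47-fold (log2 fold change 0.55, SE 0.143, adjusted p = 0.046), and it held in 3 of the 12 fits with 1 array left out. Its value was 0.39 without the displaced arrays (adjusted p = 0.0037). The log2 fold changes with TQ and TQ+5-FU were 0.25 and 0.32 (adjusted p = 0.65 and 0.44, and 0.25 and 0.24 with adjusted p = 0.020 and 0.047 without the displaced arrays).

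TUBA1B and TUBA1C, the alpha tubulins that most dividing cells make in bulk, showed no difference that passed in any comparison. All 5 probe sets of TUBA1B lay between 13.81 and 14.06, and both of TUBA1C between 13.83 and 14.05, in all 12 arrays. These readings were close to the top of the scale, since the highest signal of an array was 14.29 to 14.34 and its median 6.34 to 6.57. With 5-FU their log2 fold changes were 0.04 to 0.10 (adjusted p from 0.56 to 0.78), and the 95% CIs of all 7 probe sets lay within -0.14 to 0.30. All 7 carry the x_at suffix, which marks probes that can also bind near-identical transcripts, as do both probe sets of TUBB3 and of TUBB4B. TUBA1A, TUBA1B and TUBA1C are neighbours on chromosome 12 with closely related coding sequences, so the gene behind each of these readings is uncertain.

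TUBAL3, a divergent alpha tubulin-like gene expressed mainly in intestine, ran opposite to the others. Its probe set read 7.57, 7.84 and 7.66 in TQ arrays, 7.56, 7.75 and 7.83 in 5-FU arrays and 7.87, 8.31 and 8.03 in TQ+5-FU arrays, against 8.57, 8.65 and 8.77 in control arrays. All 9 treated arrays were below the 3 controls, and the TQ and 5-FU arrays covered the same range. TUBAL3 fell 1.93-fold with 5-FU (log2 fold change -0.95, SE 0.139, adjusted p = 0.0027) and 1.96-fold with TQ (-0.97, SE 0.139, adjusted p = 0.027). These were -1.01 and -0.97 without the displaced arrays (adjusted p = 7.1e-05 and 2.6e-04). With TQ+5-FU the log2 fold change was -0.59 (adjusted p = 0.057, and -0.71 with adjusted p = 0.0012 without the displaced arrays). The TQ call held in 4 of the 12 fits with 1 array left out.

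The gamma tubulin TUBG1, the core of the nucleating ring at the centrosome, read 11.18, 11.02 and 11.04 in TQ arrays, 11.72, 11.87 and 12.34 in 5-FU arrays and 11.26, 11.64 and 11.44 in TQ+5-FU arrays, against 11.19, 11.21 and 11.27 in control arrays. The 5-FU arrays lay above all others, the TQ+5-FU arrays overlapped the controls, and the TQ arrays lay just below the controls. TUBG1 rose 1.68-fold with 5-FU (log2 fold change 0.75, SE 0.162, adjusted p = 0.020), and by 0.57 on the log2 scale without the displaced arrays (adjusted p = 9.4e-04). The call was lost on leaving out any 1 of the control arrays, with adjusted p up to 0.087. Its log2 fold change was -0.15 with TQ (adjusted p = 0.80) and 0.22 with TQ+5-FU (adjusted p = 0.87).

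**Figure D2:**
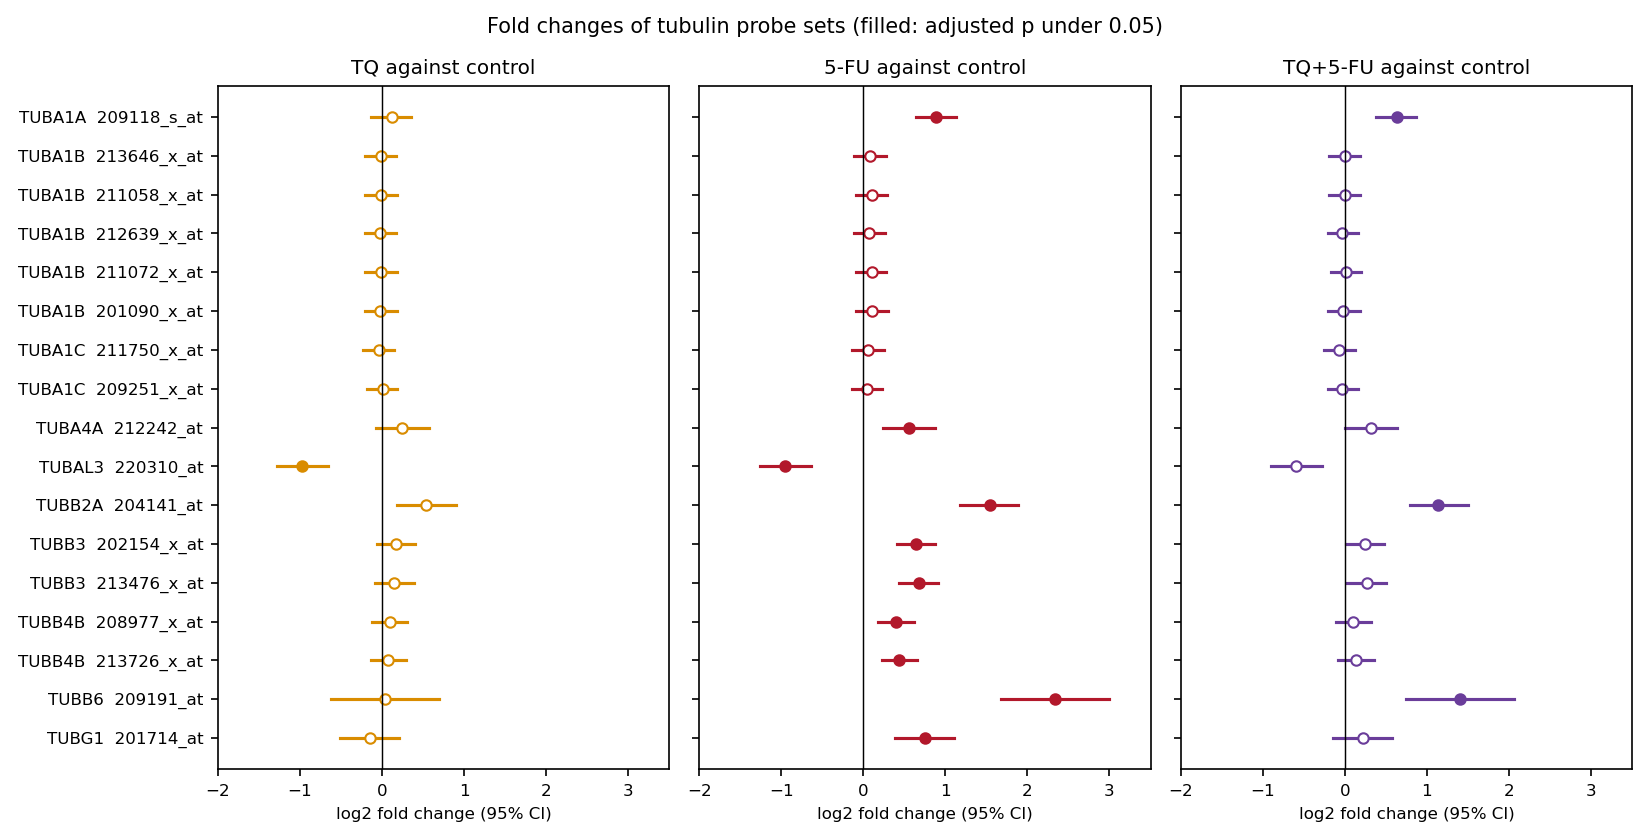
Log2 fold change against control (horizontal axis, points with 95% CI from limma) of the 17 tubulin probe sets (rows) with TQ, 5-FU and TQ+5-FU. Filled points passed at an adjusted p under 0.05: 1 with TQ, 10 with 5-FU and 3 with TQ+5-FU.

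TQ alone changed 1 tubulin probe set, that of TUBAL3, which fell, while 0.252% of all probe sets passed, 0.140% higher and 0.113% lower. In 6 of the 17 every TQ array lay above every control array, those of TUBA4A, TUBB2A, TUBB3 and TUBB4B, against 16.6% of all probe sets. For TUBAL3, TUBG1 and 211750_x_at of TUBA1C every TQ array lay below every control array. The nearest readings of TUBG1 were 11.18 with TQ and 11.19 in control. The share of all probe sets that lay below in this way is not given, so no excess is read from them. Without the displaced arrays 3 passed, TUBB2A and TUBA4A higher and TUBAL3 lower, with 30.6% of all probe sets passing, 14.1% higher and 16.5% lower.

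The combination of TQ and 5-FU raised 3 tubulin probe sets against control, those of TUBB6, TUBB2A and TUBA1A, while 2.58% of all probe sets passed, 1.48% higher and 1.10% lower. In 8 of the 17 every TQ+5-FU array lay above every control array, against 11.5% of all. Without the displaced arrays 5 passed, with TUBA4A higher and TUBAL3 lower besides, and 21.4% of all probe sets did so, 10.7% in each direction. The TQ, 5-FU and TQ+5-FU comparisons share the same 3 control arrays, so their values are not independent of each other.

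Set against 5-FU alone, the combination had lower means in 16 of the 17 probe sets, by a median of 0.23 on the log2 scale, and TUBAL3 was the exception. Several of the 16 can bind near-identical transcripts, so they are not independent readings. No tubulin probe set passed in limma, where 0.738% of all probe sets did, and 9 had an unadjusted p under 0.05 (9.49% of all probe sets). In an ANOVA with Tukey's test after the study's methods, 5 passed, against 3.48% of all probe sets. Tukey's p was not adjusted over probe sets there, and fewer passed over all than the study reports for this pair of groups. TUBB6 differed by -0.94 (95% CI -1.60 to -0.28, adjusted p = 0.26), TUBG1 by -0.53 (95% CI -0.89 to -0.17, adjusted p = 0.23) and TUBB3 by -0.39 and -0.41 (adjusted p = 0.15 and 0.14). Without the displaced arrays these passed, with differences of -0.69 for TUBB6, -0.44 for TUBG1 and -0.33 and -0.36 for TUBB3 (adjusted p = 0.012, 0.028, 0.044 and 0.044), and 6.13% of all probe sets passed, 2.88% lower. Over all probe sets, 59.7% had a lower mean with the combination than with 5-FU, and the median difference was -0.07. Of the 787 probe sets that rose with 5-FU, 90.7% had a lower mean with the combination, among them all 9 tubulin probe sets that rose. The rise and this difference share the 5-FU arrays. Against TQ alone the combination changed no tubulin probe set in limma, where 0.968% of all probe sets passed, with 5 at an unadjusted p under 0.05 (12.1% of all probe sets). The ANOVA with Tukey's test passed 3, against 3.99% of all probe sets. TUBB6 was 1.36 higher (95% CI 0.70 to 2.02, adjusted p = 0.068) and TUBA1A 0.51 higher (95% CI 0.27 to 0.75, adjusted p = 0.064), and both passed without the displaced arrays (1.20 and 0.47, adjusted p = 3.5e-04 and 0.0075), as did TUBB2A (0.51, adjusted p = 0.006), while 11.7% of all probe sets passed, 7.03% higher.

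Whether the 2 drugs added up on the log2 scale was asked with the interaction, which takes the change with TQ and the change with 5-FU away from the change with both. TUBAL3 was the 1 tubulin that passed, above 0, where 0.126% of all probe sets passed, 0.090% of all above 0. TQ and 5-FU lowered it by 0.97 and 0.95, a sum of -1.92, while the combination's log2 fold change was -0.59, which left an interaction of 1.33 (SE 0.197, 95% CI 0.89 to 1.76, adjusted p = 0.042). The interaction was 1.26 without the displaced arrays (adjusted p = 0.0020), but it held in 1 of the 12 fits with 1 array left out, that without 5-FU replicate 3, and was lost with quantile normalization, centred arrays, the replicate block and the trended prior. The other 16 probe sets had an interaction below 0, where 49.9% of all probe sets had one, and none of them passed (adjusted p from 0.22 to 1.00). The 16 include all TUBA1B and TUBA1C probe sets, at -0.07 to -0.10. Several can bind near-identical transcripts, so the 16 are not independent readings. The largest were those of TUBB6 at -0.98 (95% CI -1.91 to -0.04) and TUBB2A at -0.94 (95% CI -1.44 to -0.43). The interaction uses the same 5-FU arrays as the comparison with 5-FU alone, so those values are not independent of each other. Without the displaced arrays 6 probe sets passed, TUBAL3 above 0 and those of TUBB2A, TUBB6, TUBA4A and TUBB3 below 0, with 9.89% of all probe sets passing, 5.35% above 0 and 4.53% below.

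**Figure D3:**
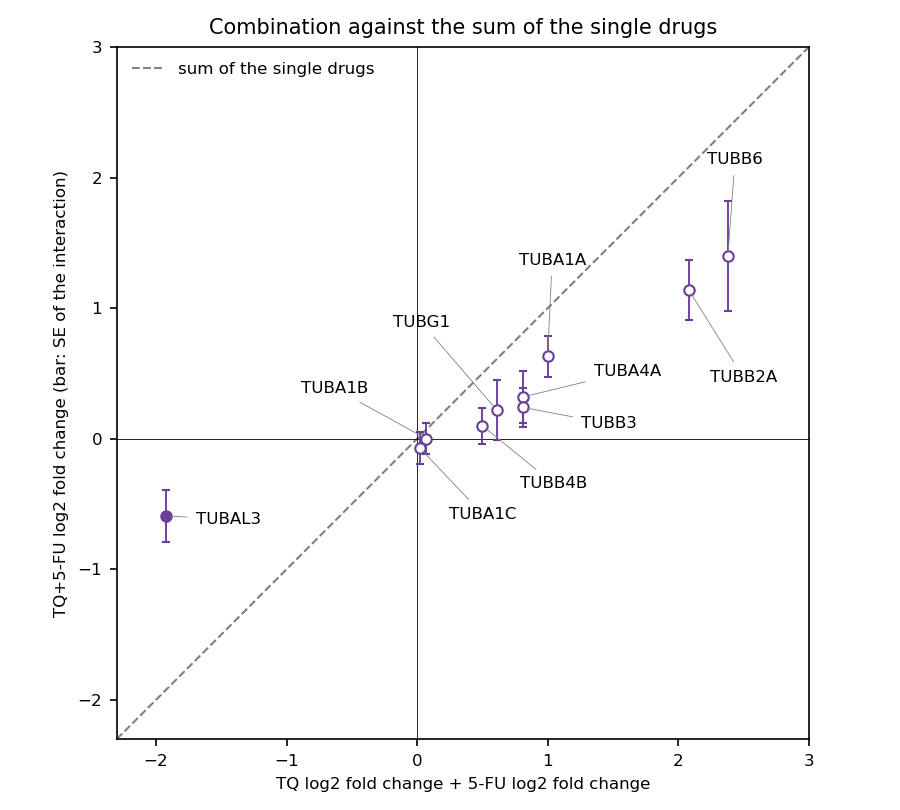
Log2 fold change with TQ+5-FU (vertical axis, bars of 1 SE of the interaction) against the sum of the TQ and 5-FU log2 fold changes (horizontal axis), with 1 probe set for each of the 10 tubulin genes and a dashed line where both are equal. TUBAL3 lies above the line with an interaction of 1.33 and is filled because it passed, and TUBB6 and TUBB2A lie below it by 0.98 and 0.94.

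Across the 4 groups at once, the moderated F passed for 7 of the 17 probe sets, from TUBA1A, TUBAL3, TUBB2A, TUBB3, TUBB6 and TUBG1, against 7.54% of all probe sets, and for 10 without the displaced arrays, against 42%. The order of the means was control, TQ, TQ+5-FU and 5-FU, low to high, for TUBA1A, TUBA4A, TUBB2A, TUBB3, TUBB4B and TUBB6. For TUBG1 TQ and control changed places, and for TUBAL3 the order was TQ, 5-FU, TQ+5-FU and control. Of the neighbours in these orders that were compared, none differed at an adjusted p under 0.05, and the TQ and 5-FU ranges of TUBAL3 overlapped. Over the 12 arrays the probe sets of the 7 genes that rose correlated with each other at 0.829 to 0.995, and over the 10 arrays left at 0.549 to 0.992. The top of both ranges was the pair of TUBB3 probe sets. TUBB3 with TUBB4B reached 0.992 over the 12 arrays, on probe sets that can bind near-identical transcripts. TUBAL3 correlated with the probe sets of the 7 genes at -0.59 to -0.216 over 12 arrays and at -0.866 to -0.241 over 10. These arrays share the treatments and the displaced arrays, so the coefficients are descriptions.

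By the highest correlation over the 12 arrays, the genes most like TUBB6 were GSN (r = 0.993), an actin severing protein, PLK3 (0.990), a stress kinase, PIDD1 (0.989), a death domain protein, and TAP1 (0.988), a peptide transporter. Those most like TUBB2A were FGFR3 (0.994), a growth factor receptor, IER5 (0.992), an immediate early gene, HBEGF (0.987), a ligand of the EGF receptor, and SFN (0.983), the 14-3-3 sigma protein. Those most like TUBA1A were ACTA2 (0.988), a smooth muscle actin, the ubiquitin ligases MARCHF3 (0.986) and RNF19B (0.984), and IP6K2 (0.984), an inositol phosphate kinase. Over the 10 arrays without the displaced pair these 12 coefficients lay between 0.976 and 0.991.

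The proteins that fold, modify, nucleate, cut and bind tubulin were counted from 7 lists, of which 90 of 116 genes were measured. In limma 4 of the 90 passed with 5-FU (4.44%), 1 higher and 3 lower, 0 with TQ, where 11 had an unadjusted p under 0.05, and 1 with TQ+5-FU, while 7.29%, 0.267% and 2.63% of all 11963 genes passed with 5-FU, TQ and TQ+5-FU. Without the displaced arrays these counts were 15 higher and 16 lower with 5-FU, 26 and 17 with TQ, and 10 and 17 with TQ+5-FU. Of all genes 14.9% were then higher and 13.4% lower with 5-FU, 15.1% and 17.3% with TQ, and 12.7% and 10.0% with TQ+5-FU. None of the 18 measured folding genes (chaperonin subunits and tubulin cofactors, with TBCA at -0.09 and adjusted p = 0.59 with 5-FU) passed, and neither did the 6 measured genes of tubulin mRNA autoregulation, the 9 of severing and destabilising proteins or the 7 other tubulins, and 3 of these 40 genes had an unadjusted p under 0.05. STMN1, which sequesters dimers, had a log2 fold change of 0.10 with 5-FU (adjusted p = 0.87) and 0.58 without the displaced arrays (adjusted p = 0.0018). The median with 5-FU was -0.10 for folding, -0.30 for the gamma tubulin ring, -0.34 for autoregulation, 0.09 for modification, -0.23 for severing, -0.19 for binding and plus ends and 0.21 for the other tubulins, against 0.09 over all genes. Without the displaced arrays these list medians were 0.05, -0.16, -0.06, 0.07, -0.07, -0.03 and 0.21 in the same order.

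The 3 genes that fell with 5-FU were MAP4, CAMSAP1 and TUBGCP3. MAP4, the main structural microtubule binding protein outside neurons, averaged 9.48 with TQ, 8.94 with 5-FU and 9.22 with TQ+5-FU, against 9.93 in control. It fell by 0.99 with 5-FU (adjusted p = 4.5e-04) and by 0.71 with TQ+5-FU (adjusted p = 0.0063), or by 1.09 and 0.74 without the displaced arrays, and with 5-FU 3 of its 5 other probe sets passed as well, all 5 having values below 0. CAMSAP1, which caps minus ends, fell by 0.87 with 5-FU (adjusted p = 0.015, and -0.67 without the displaced arrays), as did 3 of its 4 other probe sets. TUBGCP3, which binds TUBG1 in the ring complex, fell by 1.34 with 5-FU (SE 0.325, adjusted p = 0.034, and -0.91 without the displaced arrays) while TUBG1 itself rose, and its other probe set fell by 0.99 (adjusted p = 0.016). SIRT2, a deacetylase that acts on alpha tubulin and on other proteins, rose by 0.96 with 5-FU (adjusted p = 0.028, and 0.67 without the displaced arrays) and had 0.21 with TQ+5-FU. TUBB, the major beta tubulin of dividing cells, had -0.09 with 5-FU on its brightest probe set (adjusted p = 0.63). Without the displaced arrays that probe set had -0.18 (adjusted p = 0.093). On 212320_at, its only probe set without the x_at suffix, TUBB had -0.48 (adjusted p = 0.088, and -0.65 with adjusted p = 1.7e-04 without the displaced arrays).

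**Figure D4:**
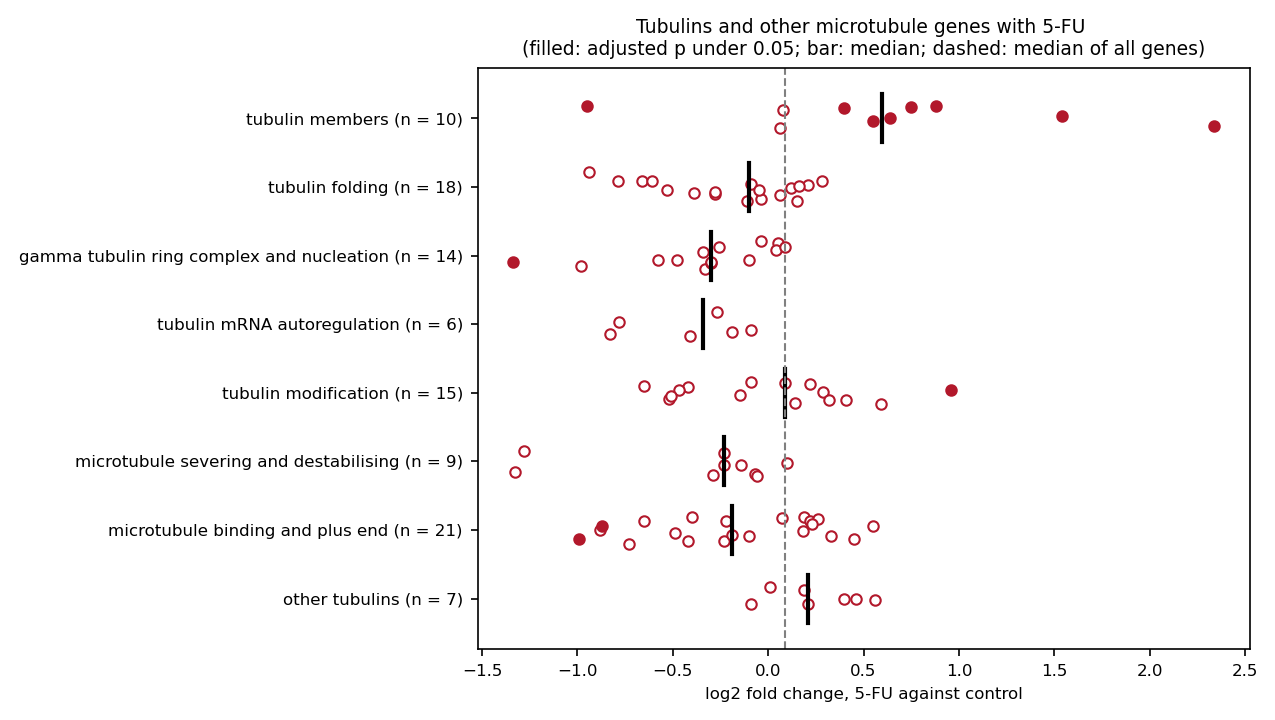
Log2 fold change with 5-FU against control (horizontal axis) of the 10 tubulin genes and of the measured genes of 7 microtubule lists (rows, 1 point per gene), with bars at the medians and a dashed line at the median of all genes, 0.09. Filled points passed: 8 of 10 tubulins and 4 of 90 listed genes, MAP4, CAMSAP1, TUBGCP3 and SIRT2, where 7.29% of all genes passed. Without the displaced arrays 7 tubulin genes were higher and 1 lower, and 15 listed genes higher and 16 lower. Of all genes 14.9% were then higher and 13.4% lower. Tubulins and lists were chosen with earlier results of these data known.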

How the data were processed

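Total RNA of RKO cells was converted to labelled RNA with a 3' kit and hybridised to Affymetrix human expression arrays. The deposited values are log2 signals that the authors normalized by RMA. The submitters' processing notes name Affymetrix Expression Console for this step, whereas GeneSpring is named in the paper's methods, and the values cannot settle it. They were taken as deposited, 1 column for each of the 12 arrays. RMA gives no depth or detection call, so the number of arrays limits the precision.

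The 62 control probe sets of 22277 were left out. One mean per group was fitted to all 12 arrays with limma 3.58.1 in R 4.3.3, with empirical Bayes moderation and Benjamini-Hochberg adjustment over 22215 probe sets. Tests were two-sided, with a threshold of 0.05. An exact permutation test over 3 and 3 arrays cannot go below a two-sided p of 0.1 and was not run. The fit was run on simulated data with independent noise and no displaced arrays, which cannot show how it behaves where arrays stand apart.

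Gene names come from the annotation of the array, in which 19064 probe sets name 1 gene, 1043 several and 2108 none. Genes of the lists were read from their brightest probe set. Named were every tubulin member, the lead gene of each list and up to 4 listed genes past the threshold with the largest change against control, and the 4 genes most correlated with each of the 3 members with the smallest F p. Lead genes without a measured probe set were left unnamed, and TUBGCP2, the lead of the ring complex, had a log2 fold change of -0.04 with 5-FU. TUBB 212320_at, 209372_x_at and TUBD1 were named after their values were seen. The members and lists were chosen with earlier results of these data known. Sequences are RefSeq's, on GRCh38.p14, read with Python 3.11.15. Figures were drawn with matplotlib 3.10.9.

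Alternatives were the ANOVA with Tukey's test and the t-test of the study's methods, limma with only the groups in question, a block for the replicate number, quantile normalization, centred arrays, removal of the dimmest 30% of probe sets, a trended and robust variance prior, array weights and each array left out. In the ANOVA, Tukey's p counted where the adjusted F passed and was not itself adjusted over probe sets. Its counts over all probe sets were below those the study reports. Chosen after seeing the data were omission of both displaced arrays (5-FU replicate 3, TQ+5-FU replicate 2) and the poly-A level as a covariate.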

Additional observations from a re-analysis of the deposited data

Results flagged for a closer look

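TUBAL3 was singled out because its response to 5-FU differed between cells with and without TQ in a test of that difference. With TQ present, 5-FU went with a log2 difference of 0.38 (TQ+5-FU against TQ, adjusted p = 0.29), and without TQ with -0.95 (5-FU against control, adjusted p = 0.0027). The interaction was 1.33 (adjusted p = 0.042 in limma). The call was lost in 15 of 21 alternatives, with quantile normalization, centred arrays, the replicate block, the trended prior and 11 of the 12 arrays left out, while the interaction stayed between 1.21 and 1.43 (adjusted p up to 0.23).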

How the results depend on the processing

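Of 13 calls of single tubulin genes, no call turned its direction under any alternative. Over the settings other than a left-out array, 574 gene values kept their side of the threshold, 35 lost it and 81 gained it, and over each array left out 659, 52 and 9. TUBB2A with TQ+5-FU passed under all 24 alternatives. The counts below are of the 17 probe sets, beside 1 with TQ, 10 with 5-FU, 3 with TQ+5-FU, 0 for TQ+5-FU against 5-FU, 0 for TQ+5-FU against TQ and 1 for the interaction. Where a count moved, the cause was not tested.

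Quantile normalization gave 0 with TQ and 0 for the interaction (0.293% and 0.113% of all probe sets). Centred arrays gave 0 with TQ, 6 with 5-FU, 1 with TQ+5-FU and 0 for the interaction (0.0585%, 4.85%, 1.68% and 0% of all). Over all probe sets with TQ, 31 passed higher and 25 lower as deposited, 27 and 38 after quantile normalization and 11 and 2 after centring. For TQ+5-FU against 5-FU these counts were 85 and 79, 87 and 71, and 32 and 36, and for the interaction 20 and 8, 16 and 9, and 0 and 0. A trended and robust prior gave 0 with TQ, 1 for TQ+5-FU against 5-FU, 1 for TQ+5-FU against TQ and 0 for the interaction. The shares of all probe sets were then 0.176%, 0.608%, 0.716% and 0.0495%. Array weights gave 7 with TQ, 10 with TQ+5-FU, 8 against 5-FU, 5 against TQ and 9 for the interaction, with 48.2%, 43%, 20.3%, 44.2% and 36.3% of all probe sets passing. The ANOVA with Tukey's test gave 2 with TQ, 6 with TQ+5-FU, 5 against 5-FU and 3 against TQ (2.93%, 4.62%, 3.48% and 3.99% of all). The methods' t-test gave 4 with TQ, 0 with 5-FU and 1 with TQ+5-FU after adjustment (16.2%, 1.19% and 2.46% of all). At an unadjusted p under 0.05 it gave 7, 15 and 9 (35.3%, 11.6% and 16% of all). Limma on the groups compared only gave 3 with TQ, 1 with 5-FU and 1 for TQ+5-FU against TQ (29.5%, 0.729% and 0.549% of all). Leaving out both displaced arrays gave 3 with TQ, 5 with TQ+5-FU, 4 against 5-FU, 3 against TQ and 6 for the interaction (30.6%, 21.4%, 6.13%, 11.7% and 9.89% of all). The poly-A covariate gave 3 with TQ, 8 with TQ+5-FU, 8 against 5-FU, 5 against TQ and 9 for the interaction (12.4%, 22%, 11.8%, 31% and 7.03% of all).

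Replicates share numbers across groups. Deviations of same-numbered arrays from their group means correlated above 0.1 in 6 of 18 pairs (r from -0.836 to 0.859). Those of different-numbered arrays did so in 19 of 36. The displaced arrays weigh on these values, which therefore cannot show that pairing is absent. No label states a pairing, and the numbers were not taken to pair the samples. With the replicate block 0 passed with TQ, 7 with 5-FU, 3 with TQ+5-FU and 0 for the interaction. The shares of all probe sets were 0.0405%, 4.79%, 1.46% and 0%.

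With each array left out in turn, 0 to 2 passed with TQ, 6 to 10 with 5-FU, 1 to 5 with TQ+5-FU, 0 to 0 for TQ+5-FU against 5-FU, 0 to 4 against TQ, 0 to 2 for the interaction and 4 to 9 with the F. The highest counts with TQ, with TQ+5-FU, against TQ and for the interaction came without 5-FU replicate 3, and the 6 with 5-FU came without any 1 of the controls. TUBAL3 with TQ (-1.04 to -0.91, adjusted p up to 0.17) and 208977_x_at of TUBB4B with 5-FU (0.33 to 0.44, adjusted p up to 0.15) were lost without any 1 of the TQ or control arrays, 5-FU replicate 2 or TQ+5-FU replicate 3. TUBA4A with 5-FU (0.39 to 0.65, adjusted p up to 0.18) was lost without those arrays or TQ+5-FU replicate 1. TUBB6 with TQ+5-FU (1.24 to 1.56, adjusted p up to 0.16) was lost without any 1 of the arrays other than the 5-FU ones. TUBA1A with TQ+5-FU (0.59 to 0.69, adjusted p up to 0.095) was lost without TQ+5-FU replicate 2 or 3 or control replicate 1 or 2. TUBG1 with 5-FU (0.57 to 0.88, adjusted p up to 0.087) was lost without any 1 of the controls. The TUBAL3 interaction (1.21 to 1.43, adjusted p up to 0.19) was lost without any array but 5-FU replicate 3.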

Other observations

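Tubulin probe sets outside the 17 are given here as values. 209372_x_at, annotated to TUBB2B and TUBB2A, read 9.13, 9.11 and 9.04 in TQ arrays, 9.71, 9.80 and 10.51 in 5-FU arrays and 9.10, 9.59 and 9.26 in TQ+5-FU arrays, against 8.70, 8.82 and 8.97 in control arrays. Each probe set of TUBB had a log2 fold change below 0 with 5-FU, but the sizes differed. 212320_at read 12.01, 12.13 and 12.11 in TQ arrays, 11.53, 11.49 and 12.01 in 5-FU arrays and 11.64, 11.95 and 11.74 in TQ+5-FU arrays, against 12.11, 12.18 and 12.19 in control arrays. Its log2 fold change with 5-FU was -0.48 (limma, adjusted p = 0.088) and -0.65 without the displaced arrays (adjusted p = 1.7e-04). The other 2 probe sets of TUBB, 209026_x_at and 211714_x_at, had -0.10 and -0.09. Without the displaced arrays both had -0.18 (limma, adjusted p = 0.087 and 0.093). TUBD1, the delta tubulin of centrioles, was read by 2 probe sets. 221326_s_at read 6.02, 6.08 and 6.40 in TQ arrays, 5.53, 5.69 and 5.06 in 5-FU arrays and 5.53, 5.27 and 5.46 in TQ+5-FU arrays, against 5.33, 5.25 and 5.15 in control arrays. Its TQ arrays lay above all 9 others, with a log2 fold change of 0.92 with TQ (limma, adjusted p = 0.068, and 4.2e-04 without the displaced arrays). The brighter 210389_x_at read 6.31, 6.45 and 6.45 in TQ arrays, 6.48, 6.24 and 5.04 in 5-FU arrays and 6.53, 5.80 and 6.25 in TQ+5-FU arrays, against 5.82, 6.07 and 5.87 in control arrays. Its TQ arrays lay above the controls but not above all other arrays, with a log2 fold change of 0.49 with TQ (limma, adjusted p = 0.70, and 0.0061 without the displaced arrays).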
